A study of Mus musculus with 5 samples.

Results

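Zinc finger protein genes named Zfp and a number were examined for RNA Polymerase II occupancy in in vitro differentiated Th2 cells. The group was chosen from the gene table by its labels: names made of Zfp and digits alone, without Zfp36, with an interval of enriched signal in at least 1 of the 2 Parp14+/+ libraries. The rule gave 91 genes of 11608 lines in the table, and of 7971 lines with such an interval. A further 12 such lines had another label but a transcript accession that RefSeq gives a Zfp name, and were left out. No member carried the values of another member, so all 91 counted once. Where all genes are given for comparison, neighbouring lines with identical values were counted once, which left 6714 genes. The rule used the Parp14+/+ and Parp14+/+ + PJ34 libraries. Presence in those libraries, and each ratio with a Parp14+/+ library in it, is therefore a description, whereas the Parp14-/- and Parp14-/- + PJ34 libraries were not used to choose the members.

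Naive CD4+ CD62L+ T cells from spleens of C57BL6 mice, 6 to 8 weeks old by the study's methods, were cultured for 3 days under Th2 conditions with 10 ng/ml IL-4 and expanded for 4 days. The antibody used for ChIP recognised RNA Polymerase II with phosphoserine 2, the form that travels through the body of a transcribed gene. There were 4 conditions with 1 library each, namely PARP-14 +/+ cells, PARP-14 +/+ cells with PJ34, PARP-14 -/- cells and PARP-14 -/- cells with PJ34, the libraries with PJ34 being called treated. PJ34 is a small inhibitor of PARP enzymes that is not particular to PARP-14. Its dose is 10 µM in the labels and lower in the methods of the study, and the labels describe it as given to differentiated cells whereas the methods describe culture in its presence. The Input was a 50:50 mixture of both genotypes, and no Input value per gene was used. With 1 library per condition no difference between the libraries has a replicate check, and no test was run. The intervals given for the ratio of a single gene cover counting error alone. Those given for medians rest on the spread among genes of 1 pair of libraries, and genes are not replicates. The authors set all libraries to an equal number of alignments. Of the fixed marker lists, all 6 T cell genes and all 5 Th2 genes had an interval in a Parp14+/+ library. The summed Th2 heights were 312, 261, 255 and 207 in Parp14+/+, Parp14+/+ + PJ34, Parp14-/- and Parp14-/- + PJ34. Much of the sum was Il4ra, at 132, 110, 160 and 130 in that order. Gata3, Il4, Il5 and Il13 were each lower in Parp14-/- than in Parp14+/+. Il5 stood at 21, 21, 4 and 6, with no interval in either Parp14-/- library. The T cell gene Cd3g stood at 11, 15, 11 and 9, and had an interval in Parp14+/+ alone. Of the other lists, Th1 had 2 of 2 genes (Tbx21 and Ifng), Th17 1 of 2, the B cell list 1 of 4 (Cd79a, at 38 in Parp14+/+), the myeloid list 1 of 4 (Csf1r, at 8), and the CD8 and regulatory T cell lists none.

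A classical zinc finger of these proteins is a short fold in which a pair of cysteines and a pair of histidines hold a zinc ion, and fingers in a row read DNA base by base. Many such proteins also carry a KRAB domain, which recruits the co-repressor KAP1 (Trim28), and through it Setdb1 and the HP1 proteins (Cbx1, Cbx3, Cbx5), to silence retroelements and imprinted genes. The family grew by duplication of neighbouring genes, so that many members lie in arrays on the same chromosome and share nearly identical finger-coding stretches. The name Zfp was given by similarity, and some genes that carry it do other work. By gene identifier, 12 of the 91 members have another symbol in RefSeq, among them Zfp294 (Ltn1, a ubiquitin ligase of stalled ribosomes), Zfp289 (Arfgap2, of vesicle transport), Zfp313 (Rnf114), Zfp259 (Zpr1), Zfp191 (Zfp24) and Zfp161 (Zbtb14).

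The members were sorted by the proteins encoded in GENCODE for the mm9 genome. Fingers of the C2H2 pattern were counted in the translated coding sequences, the median being 8 and the highest count 36, in Zfp142. There were 34 members with 10 or more fingers, 33 with 5 to 9, 17 with 1 to 4 and 7 with none that fitted the pattern. The 7 were Zfp259, Zfp289, Zfp294, Zfp330, Zfp364, Zfp469 and Zfp703. A stretch close to the KRAB box was found in 20 members, whose median finger count was 10.

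Because fingers repeat, a read of 36 bases from a finger can fit several genes. The share of 36-base windows that occur once in mm9 was therefore counted for each member. Over the gene body the median was 95.6%, with 12 members under 90%, the lowest being Zfp69 at 58.1%, Zfp52 at 64.2%, Zfp81 at 69.2% and Zfp161 at 70.5%. Over the coding sequence the median was 100%, with 56 members at 100% and 9 under 90%, and the lowest was Zfp617 at 24.8%. The sequences that were repeated most, leaving out simple repeats, were finger sequences. They are printed here since they show where reads could not be assigned, and the capitals mark the codons of the TGEKP linker between fingers or, in Zfp119, the codons of both zinc-binding cysteines.
Zfp119 coding window, chr17:56004625-56004660, minus strand: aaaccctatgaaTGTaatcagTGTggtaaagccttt
Zfp51 coding window, chr17:21602297-21602332, plus strand: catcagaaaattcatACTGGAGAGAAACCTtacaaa
Zfp52 coding window, chr17:21698305-21698340, plus strand: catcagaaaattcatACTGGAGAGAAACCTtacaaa
Zfp617 coding window, chr8:74456442-74456477, plus strand: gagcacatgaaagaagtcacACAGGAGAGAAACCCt
The Zfp119 window occurred 38 times in mm9, the window shared by Zfp51 and Zfp52 14 times, and the Zfp617 window 8 times. The neighbours Zfp51 and Zfp52 on chromosome 17 thus hold the same 36 bases. Across the 91 members the unique share of the body and the mean height had a Pearson r of 0.106 and a Spearman rho of 0.164, both given as a description over genes of the same 4 libraries.

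Of the 91 members, 75 matched a RefSeq promoter by gene identifier (250 bases before the start to 50 after it, GRCm38.p6), and all 75 were found letter for letter in mm9. Promoters are shown for 4 members described in the sections on heights and ratios, with mm9 positions and with motif matches in capitals.
Zfp513 promoter, chr5:31504627-31504926, minus strand: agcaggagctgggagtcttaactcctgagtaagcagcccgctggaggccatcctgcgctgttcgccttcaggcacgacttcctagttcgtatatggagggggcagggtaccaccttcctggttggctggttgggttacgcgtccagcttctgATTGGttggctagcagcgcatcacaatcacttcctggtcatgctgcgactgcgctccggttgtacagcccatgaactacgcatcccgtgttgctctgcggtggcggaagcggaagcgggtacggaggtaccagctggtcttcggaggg
Zfp207 promoter, chr11:80196531-80196830, plus strand: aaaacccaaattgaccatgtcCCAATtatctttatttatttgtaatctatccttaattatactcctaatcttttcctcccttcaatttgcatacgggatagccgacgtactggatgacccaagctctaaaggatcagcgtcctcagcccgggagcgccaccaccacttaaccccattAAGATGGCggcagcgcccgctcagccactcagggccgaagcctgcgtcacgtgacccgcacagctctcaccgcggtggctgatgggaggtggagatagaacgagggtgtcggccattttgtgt
Zfp143 promoter, chr7:117204966-117205265, plus strand: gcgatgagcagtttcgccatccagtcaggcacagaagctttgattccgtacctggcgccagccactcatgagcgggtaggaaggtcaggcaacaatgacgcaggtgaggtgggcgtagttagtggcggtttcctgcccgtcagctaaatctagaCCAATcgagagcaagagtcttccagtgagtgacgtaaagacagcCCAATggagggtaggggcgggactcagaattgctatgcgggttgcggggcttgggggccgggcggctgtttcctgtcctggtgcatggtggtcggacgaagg
Zfp281 promoter, chr1:138521228-138521527, plus strand: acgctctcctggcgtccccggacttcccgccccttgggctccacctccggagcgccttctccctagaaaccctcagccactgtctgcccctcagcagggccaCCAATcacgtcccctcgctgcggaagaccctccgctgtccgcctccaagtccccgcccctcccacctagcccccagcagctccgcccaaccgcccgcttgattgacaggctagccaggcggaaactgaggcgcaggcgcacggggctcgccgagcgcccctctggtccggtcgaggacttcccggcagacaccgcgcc
The capitals are CCAAT, read on either strand, in each of the 4 promoters, and AAGATGGC, the core that YY1 binds, in Zfp207. The median promoter of the members held 20 CpG and 59.7% G and C, against 22 CpG and 61.3% in 5976 genes of the table with an interval in a Parp14+/+ library. The letters CCAAT were found in 37 of 75 member promoters (49.3%) and 37.3% of those of the 5976 genes, CCGGAAGT (an ETS site) in 11 (14.7%) and 9.45%, and AAGATGGC in 7 (9.33%) and 5.47%. TTTCGCGC and TTTGGCGC, both of the E2F kind, were found in 1 and 2 members, and in 0.803% and 1.07% of the 5976 genes. Both strands were searched, and matches may overlap one another. Enriched intervals lay over 26 of the 75 promoters in Parp14+/+ (34.7%), 25 in treated Parp14+/+ (33.3%), 21 in Parp14-/- (28%) and 20 in treated Parp14-/- (26.7%). Promoters of all genes were not counted in this way. The rule asked for an interval in a Parp14+/+ library, so the order of these shares is a description only.

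The signal of a gene was its average peak height: the highest pile-up of fragments was taken in each active region, and the mean of these was used. It is a local height and does not scale with the length of the gene. Active regions were merged over all libraries of the table, so that a region may hold no interval of these 4. The members were low. Their median height was 8 fragments in Parp14+/+, 8 in treated Parp14+/+, 7 in Parp14-/- and 7 in treated Parp14-/-, against 9, 9.5, 9 and 8 over all genes. The mean of the 4 libraries was under 10 in 63 members (69.2%, against 58.9% of all genes) and 20 or more in 6 (6.59%, against 11.1%). Only 1 member, Zfp143, reached a summed height of 50 in any library, and the ratios of all other members rest on fewer fragments than that. Members with 10 or more fingers had a median height of 7.44 in Parp14+/+ and 6.5 in Parp14-/-, and those with 1 to 4 fingers had 7.5 and 8. Over the 91 members the finger count and the mean height had a Pearson r of -0.131 and a Spearman rho of -0.144, and gene length and mean height had -0.166 and -0.262.

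**Figure D1:**
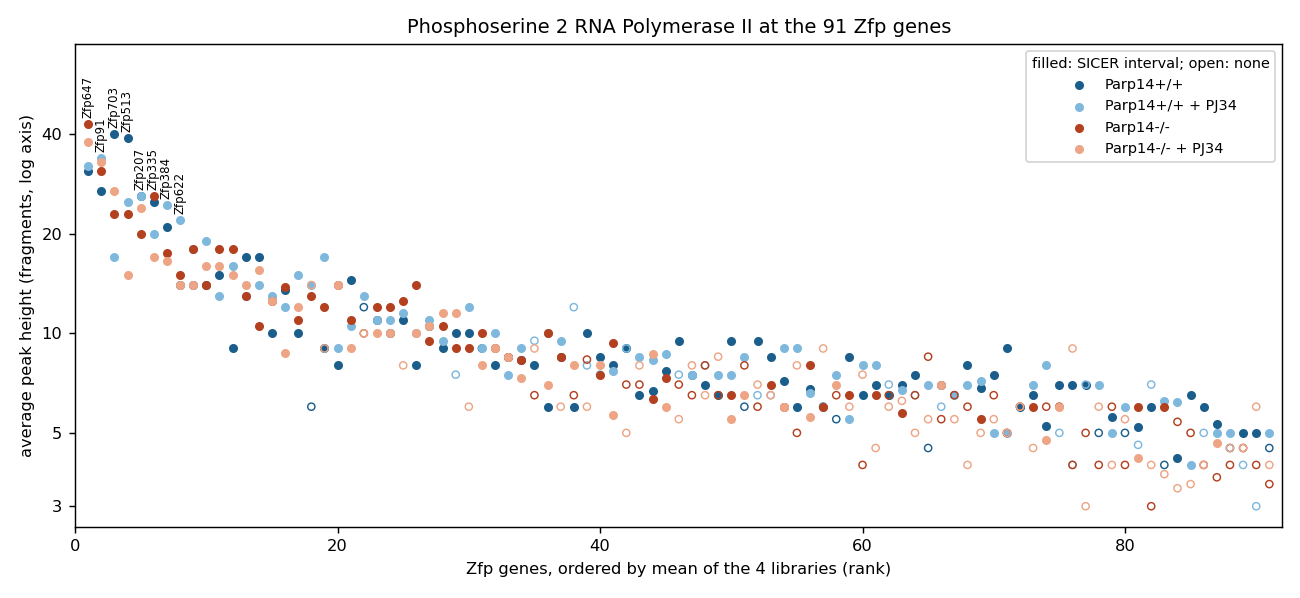
Average peak height in fragments (log axis) of each of the 91 Zfp genes in the 4 libraries, ordered by the mean of the 4, with filled points where a SICER interval was present and open points where it was not. The 8 highest members are named, and 63 of the 91 have a mean under 10.

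The tallest members mostly carried signal that they shared with a neighbour. Zfp647, a KRAB gene on chromosome 15, stood highest, at 31 fragments in Parp14+/+, 32 in treated Parp14+/+, 43 in Parp14-/- and 38 in treated Parp14-/-. Its values were identical to those of the adjacent Rpl8, a ribosomal protein gene, and the summit lay in Rpl8 in treated Parp14+/+ and in Parp14-/-. In Parp14+/+ the summit lay past the end of Zfp647, and in treated Parp14-/- no interval overlapped the gene. Zfp91, which encodes a ubiquitin ligase with zinc fingers, stood at 27, 34, 31 and 33 in the same order, and had the same values as Cntf. Its interval also held Lpxn in all 4 libraries and Cntf in both Parp14+/+ libraries, and its summit lay in Lpxn in treated Parp14+/+ and in Parp14-/- and upstream of Zfp91 in the others. Zfp335, a regulator needed for T cell maturation, stood at 25, 20, 26 and 17, and its summit lay in Pcif1 in all 4 libraries. Zfp384, an architectural factor of the nuclear matrix, stood at 21, 24.5, 17.5 and 16.5 as the mean of 2 active regions, and the summit of its tallest interval lay in Ing4 in all 4 libraries. In none of these 4 genes did the tallest interval have its summit inside the gene in any library. In all, 16 members had exactly the values of another gene of the table.

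Zfp703 and Zfp207 stood among the highest without another protein-coding gene in their interval. Zfp703, a transcriptional co-repressor known as an oncogene of luminal breast cancer, lies at chr8:28087827-28091938 and was covered whole by an interval in every library. It stood at 40 in Parp14+/+, 17 in treated Parp14+/+, 23 in Parp14-/- and 27 in treated Parp14-/-. The Parp14+/+ library was the highest and the treated Parp14+/+ library the lowest. Its summit lay at the same base in Parp14+/+ and Parp14-/-, 350 bases past the annotated end of the gene, and the 101 bases around it are printed with the central 21 in capitals.
Zfp703 summit, chr8:28092238-28092338, plus strand: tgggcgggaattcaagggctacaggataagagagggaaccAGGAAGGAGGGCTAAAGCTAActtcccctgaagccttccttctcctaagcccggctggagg
Zfp207, whose product brings a checkpoint protein to the kinetochore, stood at 26, 26, 20 and 24 in the same order, and the 4 libraries lay close to each other. In 3 of them the summit lay 15 to 79 bases into the gene, just past the promoter shown for it, and in Parp14+/+ it lay downstream of the gene. A gene model with no name of its own, LOC100043601, carried the values of Zfp207. Zfp622, a factor of 60S ribosome maturation, stood at 14, 22, 15 and 14, and was highest in treated Parp14+/+.

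Intervals were set apart by whether they were a member's own. In Parp14+/+ an interval overlapped 70 members, and 29 of these had the summit inside the gene and no other protein-coding gene in the interval (41.4%, against 26.3% of 6153 lines of the table counted the same way, where a gene is set apart from its neighbours by its label or RefSeq symbol). The same held for 27 of 57 in treated Parp14+/+ (47.4%, against 32.2%), 20 of 44 in Parp14-/- (45.5%, against 32.5%) and 14 of 39 in treated Parp14-/- (35.9%, against 30.5%). The members for which it held in all 4 libraries were 6, namely Zfp295, Zfp313, Zfp52, Zfp655, Zfp719 and Zfp746. Zfp746 encodes PARIS, a repressor and a substrate of the ubiquitin ligase parkin, and it stood at 14.5, 10.5, 11 and 9, highest in Parp14+/+. For 10 members no interval of a Parp14+/+ library overlapped the gene, and the table counted an interval nearby, Zfp148, Zfp217 and Zfp526 being among them.

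A smaller share of the members than of all genes had an interval in the Parp14-/- libraries. An interval was present in 78 members in Parp14+/+ (85.7%, against 88.6% of all genes) and in 69 in treated Parp14+/+ (75.8%, against 87.3%), both of which the rule used. It was present in 51 members in Parp14-/- (56%, against 71.1%) and in 45 in treated Parp14-/- (49.5%, against 67.4%). All 4 libraries had it in 34 members (37.4%, against 56.9%), and neither Parp14-/- library had it in 33 (36.3%, against 22%). The commonest patterns after presence in all 4 were Parp14+/+ alone, with 15 members, and both Parp14+/+ libraries without either Parp14-/- library, with 11. The members were also lower than genes in general, so presence was set out by height. At a mean height of 10 to 20 an interval in Parp14-/- was present in 21 of 22 members (95.5%, against 89.4%), and at 8 to 10 in 8 of 11 (72.7%, against 74.7%). At 6 to 8 it was present in 14 of 37 (37.8%, against 58.1%), and under 6 in 2 of 15 (13.3%, against 32.5%). For Parp14-/- the lower share thus lay in members with a mean height under 8. An interval in all 4 libraries was less common than in all genes up to a height of 10, with 4 of 11 members at 8 to 10 (36.4%, against 58.1%) and 18 of 22 at 10 to 20 (81.8%, against 80.2%).

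**Figure D2:**
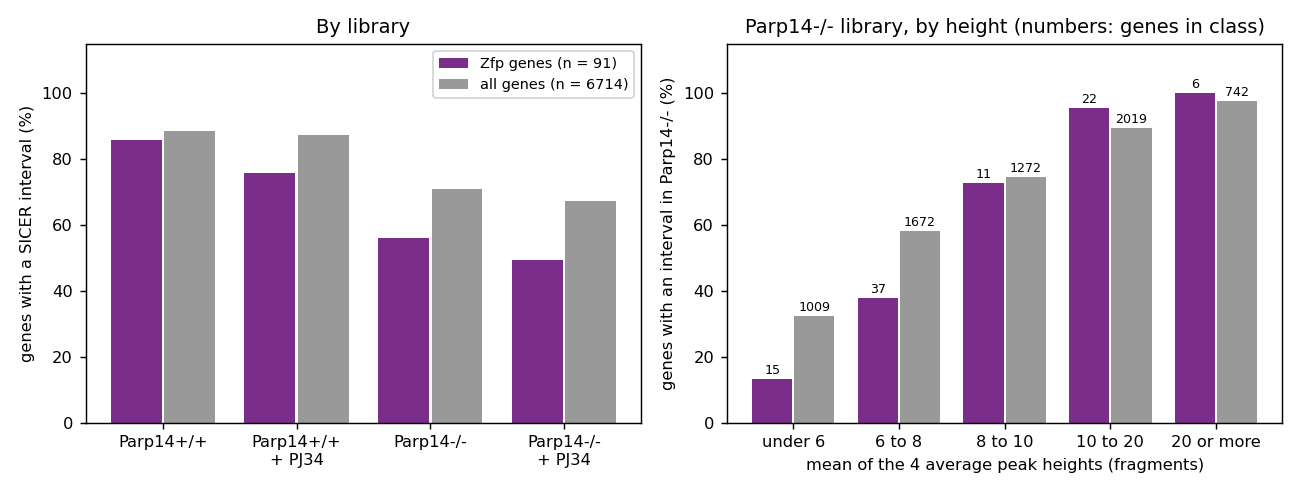
Share of genes with a SICER interval (%), for the 91 Zfp genes and all 6714 genes, in each library (left) and in the Parp14-/- library by class of mean average peak height in fragments (right, with the number of genes over each bar). The bars of both groups lie close together from a height of 8 upwards, and the Zfp bars are lower below it, at 37.8% against 58.1% and 13.3% against 32.5%.

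Along the gene, intervals covered the last 10% of the gene length of the members on average by 46.9% in Parp14+/+, 33.8% in treated Parp14+/+, 25.4% in Parp14-/- and 24.5% in treated Parp14-/-. The same figures over all genes were 47.2%, 39.6%, 32.3% and 30%. The first 10% of the members was covered by 25.2%, 22.7%, 20.9% and 21.6%, against 35%, 31.3%, 28.3% and 27.6% over all genes. The figures for the 3′ end thus lay further apart than those for the 5′ end, in the members as in all genes. In kilobases the intervals covered 349 of the members' bodies in Parp14+/+, 268 in treated Parp14+/+, 196 in Parp14-/- and 202 in treated Parp14-/-. Members and all genes alike were kept for an interval in a Parp14+/+ library. Higher coverage in those libraries follows in part from that choice, and these values are a description.

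Without PJ34, the question was whether loss of PARP-14 changed occupancy of these genes. The ratio of Parp14+/+ to Parp14-/- had a median of 1.08 (95% order-statistic interval 1 to 1.15), and 1.03 over all genes. It was above 1 in 48 members (51% of all genes) and below 1 in 34 (40.5% of all genes). It was above 1.4 in 11 members (12.1%, against 13.1% of all genes) and below 0.7 in 7 (7.69%, against 8.88%). These shares lie near those of all genes. Zfp703 was the only member whose own 95% interval excluded 1, with a ratio of 1.74 (1.02 to 3.04), and 1.07% of all genes had an interval above 1 and 1.85% below. With the libraries scaled to a median ratio of 1 over all genes its interval included 1, at 1.68 (0.982 to 2.94). Zfp513, needed for retinal development, stood at 39 in Parp14+/+, 25 in treated Parp14+/+, 23 in Parp14-/- and 15 in treated Parp14-/-, and its ratio was 1.7 (0.988 to 2.97). The highest value was again that of Parp14+/+. Its interval also held Snx17 and Ppm1g in all 4 libraries and Eif2b4 in Parp14+/+ and Parp14-/-, Snx17 had the same values, and the summits of 3 libraries lay 130 to 162 bases upstream of the gene start.

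The lowest ratios were those of Zfp438 at 0.462 (0.144 to 1.3), Zfp330 at 0.5 (0.198 to 1.17), Zfp598 at 0.529 (0.208 to 1.26) and Zfp281 and Zfp593, both at 0.571 (0.208 to 1.46), of which Zfp438, Zfp330 and Zfp593 were named after their values had been seen. Zfp438 stood at 6 in Parp14+/+ and at 14, 13 and 14 in the 3 other libraries. Zfp330, a nucleolar protein gene, stood at 9 in Parp14+/+ and at 16, 18 and 15 in the others. In both, the untreated Parp14+/+ library was low and the 3 others lay together. Zfp438 had no interval in Parp14+/+ or in treated Parp14-/-. In treated Parp14+/+ the interval over Zfp438 peaked at 6, below its height of 14. Zfp281, a repressor and activator of pluripotency genes, stood at 8 and 9 in the Parp14+/+ libraries and at 14 and 14 in the Parp14-/- libraries. Its heights split by genotype and not by PJ34, and the intervals of its ratios still included 1 in both pairs. The summit of its interval lay in the gene in both Parp14+/+ libraries. In Parp14-/- it lay 659 bases upstream, and in treated Parp14-/- it lay downstream, 9197 bases from the gene start. In treated Parp14+/+ that summit stood at 6, below the height of 9, so it does not show where the 9 came from. In Parp14+/+ and both Parp14-/- libraries the summit had the height of Zfp281, and it lay in a different place in each. Zfp593 stood at 8, 10, 14 and 10, was high in Parp14-/- alone, and had the values of Grrp1. Zfp598, a ubiquitin ligase that senses collided ribosomes, stood at 4.5, 7, 8.5 and 5.5.

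**Figure D3:**
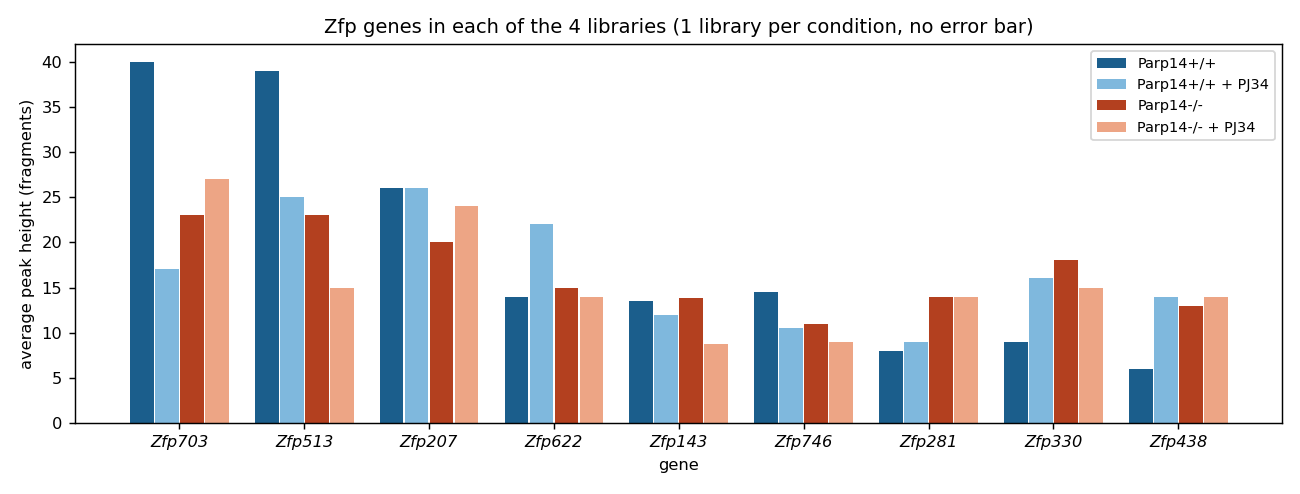
Average peak height in fragments of 9 Zfp genes in the 4 libraries (bars, 1 library each, so without error bars). Zfp703 and Zfp513 were highest in Parp14+/+ at 40 and 39, Zfp281 was at 14 in both Parp14-/- libraries against 8 and 9, and Zfp330 and Zfp438 were lowest in Parp14+/+ at 9 and 6.

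With PJ34, the ratio of Parp14+/+ to Parp14-/- had a median of 1.12 (1.07 to 1.23) in the members and 1.17 in all genes. It was above 1 in 64 members (67.4% of all genes) and below 1 in 22 (25.8% of all genes). It was above 1.4 in 21 members (23.1%, against 24.2% of all genes) and below 0.7 in 6 (6.59%, against 4.41%). The members followed the shift of all genes, and when the libraries were scaled to remove that shift the median of the members was 0.962, with 11 above 1.4. No member had an interval that excluded 1, and 3.03% of all genes had an interval above 1 and 0.626% below. The highest ratio was that of Zfp275, 2.33 (0.533 to 14) on heights of 7 and 3. Zfp703 turned to 0.63 (0.322 to 1.2) and Zfp281 stayed low at 0.643 (0.245 to 1.59).

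The pairs with and without PJ34 share no library, so their directions can be set side by side. Both ratios of Parp14+/+ to Parp14-/- were above 1 in 31 members (34.1%, against 37.1% of all genes) and both below 1 in 4 (4.4%, against 13.4%). Zfp281 was 1 of the 4. The ratios lay on opposite sides of 1 in 47.3% of the members and 35% of all genes. Across the 91 members the log2 ratios of both pairs had a Pearson r of -0.0554 and a Spearman rho of -0.0549, against 0.188 and 0.187 across 6704 genes. These are descriptions over genes of the same libraries, whose heights are low.

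The effect of PJ34 was read within each genotype. In PARP-14 +/+ cells the ratio of untreated to treated had a median of 0.955 (0.895 to 1), and 0.956 over all genes. It was above 1 in 34 members (37.9% of all genes) and below 1 in 48 (53.5% of all genes). It was above 1.4 in 9 members (9.89%, against 6.55% of all genes) and below 0.7 in 12 (13.2%, against 10.6%). Zfp703 had the highest ratio, 2.35 (1.3 to 4.43), and was the only member whose interval excluded 1, where 0.521% of all genes lay above and 0.909% below. Zfp622 was at 0.636 (0.301 to 1.3). In PARP-14 -/- cells, whose libraries the rule did not use, the median was 1.07 (1 to 1.18) and 1.09 over all genes. It was above 1 in 47 members (58% of all genes) and below 1 in 33 (32.3% of all genes). There were 18 members above 1.4 (19.8%, against 14.1% of all genes) and 7 below 0.7 (7.69%, against 5.63%), and after the scaling to a median ratio of 1 there were 9 above and 11 below, with a median of 0.992. Zfp143, an activator that binds promoters and chromatin loop anchors, was the only member whose interval excluded 1, where 1.34% of all genes lay above and 0.253% below. It stood at 13.5 in Parp14+/+, 12 in treated Parp14+/+, 13.8 in Parp14-/- and 8.75 in treated Parp14-/-, so that the treated Parp14-/- library was the low one. Its ratio was 1.57 (1.01 to 2.47) over 4 active regions and 1.45 (0.935 to 2.29) after the scaling, the tallest interval had its summit 225 to 513 bases upstream of the gene, and that interval also held AA474408 in all 4 libraries and Ipo7 in all but treated Parp14-/-. Both ratios for PJ34 were above 1 in 19.8% of the members and 21.9% of all genes, and both below 1 in 20.9% and 17.4%.

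**Figure D4:**
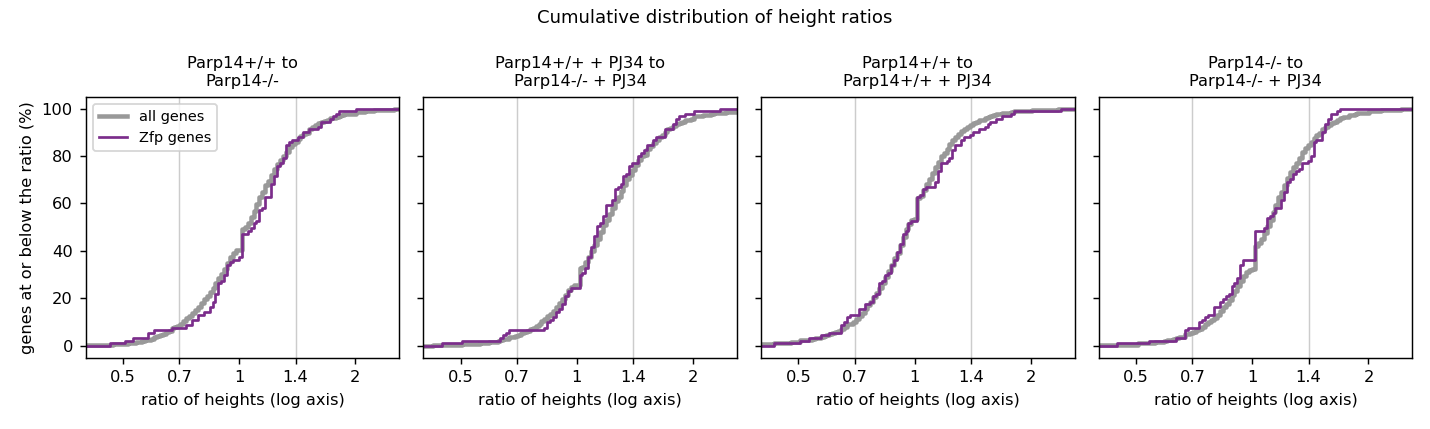
Cumulative share of genes (%) at or below each ratio of average peak heights (log axis) in the 4 pairs of libraries, for the 91 Zfp genes and all genes, with the thresholds of 0.7 and 1.4 as vertical lines. The curves run close together in every pair, with medians of 1.08 and 1.03, 1.12 and 1.17, 0.955 and 0.956, and 1.07 and 1.09.

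Other members of known function were low and had intervals wide around 1. Zfp326, a part of the complex that couples elongating RNA Polymerase II to splicing, stood at 6.5, 7, 6 and 4.5 in Parp14+/+, treated Parp14+/+, Parp14-/- and treated Parp14-/-. Zfp148, a factor of GC-rich promoters, stood at 6.8, 6.6, 8 and 5.6, and Zfp106, an RNA-binding protein, at 6.83, 7.17, 5.5 and 5. Zfp451, a SUMO ligase, stood at 6.5, 8.5, 7 and 8, Zfp64 at 5.33, 5, 3.67 and 4.67 and Zfp217 at 6, 6, 6 and 9. In none of these did the interval of any of the 4 ratios exclude 1.

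The 20 members with a KRAB stretch had a median height of 7.83 in Parp14+/+, 7.83 in treated Parp14+/+, 6.5 in Parp14-/- and 6.25 in treated Parp14-/-, and 16, 15, 9 and 7 of them had an interval. Neither Parp14-/- library had an interval in 11 (55%), against 22 of the 71 members without the stretch (31%) and 22% of all genes. The mean height was under 10 in 80% of the members with the stretch and in 66.2% of those without it. Presence of an interval followed height, and this contrast was not set out by height. Whether it belongs to the KRAB stretch or to low height was not tested. With PJ34 the ratio of Parp14+/+ to Parp14-/- was above 1 in 17 of the 20, where 67.4% of all genes were above 1, and its median was 1.15 (1.07 to 1.35). Without PJ34 it was above 1 in 12 and below in 8, with a median of 1.13 (0.88 to 1.25), where 51% of all genes were above 1. Zfp809, which silences murine leukaemia virus through KAP1, stood at 7, 8, 8 and 6.5, with an interval in Parp14+/+ alone. Zfp445, a keeper of imprints, stood at 8, 7.67, 9.33 and 5.67 and had an interval in all 4 libraries. Zfp51 stood at 6.5, 8, 4 and 7.5 and Zfp52 at 9.5, 7.5, 6.5 and 5.5, and both share the finger window shown for them.

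Of the KAP1 pathway list, 15 of 21 genes had an interval in a Parp14+/+ library. KAP1 itself (Trim28) stood at 29 in Parp14+/+, 31 in treated Parp14+/+, 27 in Parp14-/- and 27 in treated Parp14-/-, and was level across them. Setdb1, the histone methyltransferase of the pathway, stood at 7, 8, 6.5 and 5, and Cbx3 at 76, 77, 87 and 60. Daxx, a histone chaperone, stood at 39, 45, 71 and 43, with a ratio of Parp14+/+ to Parp14-/- of 0.549 (0.362 to 0.823) and the same values as its neighbour Zbtb22. Hdac2, a histone deacetylase, stood at 9.67, 7.67, 4.33 and 4.33, with a ratio of 2.23 (1.12 to 4.67). The median ratio of the 15 was 1.05 (0.889 to 1.15) without PJ34 and 1.08 (0.977 to 1.28) with it. In the 4 pairs, in the order given for the members, 3, 2, 0 and 3 of the 15 were above 1.4 (against 13.1%, 24.2%, 6.55% and 14.1% of all genes) and 1, 0, 1 and 3 were below 0.7 (against 8.88%, 4.41%, 10.6% and 5.63%). Genes named Zbtb and a number, which join zinc fingers to a BTB domain, were compared as the nearest family. The 19 Zbtb genes counted once had medians of 8, 8.5, 8 and 7, close to those of the members, and 11 of them (57.9%) had an interval in all 4 libraries, as against 37.4% of the members. Neither Parp14-/- library had it in 5 (26.3%), as against 36.3%. Their median ratio of Parp14+/+ to Parp14-/- was 1 (0.906 to 1.29) without PJ34 and 1.12 (1 to 1.42) with it.

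The members lay on 19 chromosomes, with 17 on chromosome 7, 8 on chromosome 2, and 7 each on chromosomes 9, 16, 17 and 18. Neighbouring members at most 250 kb apart formed 12 clusters with 27 members. On chromosome 7 the median height of the members was 9, 8.5, 8.33 and 8, and their median ratio of Parp14+/+ to Parp14-/- was 1.11 without PJ34 and 1.33 with it, against 1.06 and 1.21 over all genes of that chromosome. The 5 clusters there are pairs. In Zfp628 and Zfp784 the heights with PJ34 were 12 and 17 in Parp14+/+ and 6 and 9 in Parp14-/-, the lowest of each gene or equal to it. Both share values with a neighbour that is no member. Zfp382 (8, 7, 6 and 4) and Zfp146 (10, 7.5, 9 and 11.5) lie next to each other, and their ratios with PJ34 were on opposite sides of 1, at 1.75 (0.445 to 8.15) and 0.652 (0.316 to 1.3). Zfp574 (10, 11, 12 and 10) and Zfp526 (10, 8, 8.33 and 6), Zfp771 (12, 13, 10 and 10) and Zfp768 (8.5, 7.5, 7.5 and 8), and Zfp668 (6, 8.5, 8 and 6.5) and Zfp646 (10.5, 11, 9.5 and 10.5) made up the other pairs.

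On chromosome 16, Zfp263, Zfp174 and Zfp597 lie within 128 kb. Zfp263 stood at 9, 9.5, 10.5 and 11.5 with an interval in all 4 libraries, whereas Zfp174 (6, 6, 6 and 6) and Zfp597 (7.5, 6.5, 6.5 and 5) had an interval in Parp14+/+ alone. The interval that the table counted for Zfp597 did not overlap the gene. On chromosome 18, Zfp397, Zfp35 and Zfp191 lie within 66.1 kb. The table counted an interval for all 3 in both Parp14+/+ libraries and none in either Parp14-/- library. Their heights were 6.5 to 7.5 in Parp14+/+, 4 to 7.5 in treated Parp14+/+, 5 to 6.5 in Parp14-/- and 3.5 to 8 in treated Parp14-/-, and these ranges overlap. No interval overlapped Zfp35 itself in either Parp14+/+ library, or Zfp397 in treated Parp14+/+. On chromosome 6, Zfp282 (6, 9, 5 and 8), Zfp777 (9.5, 6.5, 6 and 7) and Zfp746 lie within 243 kb, and only Zfp746 had an interval in a Parp14-/- library. No member of these clusters had a ratio whose interval excluded 1.

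At the edge of the rule, the lowest members with an interval in 1 Parp14+/+ library were Zfp386 (4.5, 5, 3.5 and 4), Zfp96 (5, 3, 4 and 6), Zfp516 (4.5, 5, 4 and 4.5) and Zfp715 (5, 4, 4.5 and 4.5). Just outside were Zfp genes with an interval in a Parp14-/- library alone. Their labels in the table belong to other genes, so they were named by transcript accession. The highest of these 9 were Zfp524 (7.5, 8, 8.5 and 12.5), Zfp639 (8, 7, 8 and 10) and Zfp608 (6.25, 7.5, 8 and 5.75).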

How the data were processed

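RNA Polymerase II phosphoserine 2 ChIP-Seq of 4 conditions was analysed, with groups taken from the sample labels. The authors mapped reads to mm9 with ELAND, reduced each library to the same depth and called enriched intervals with SICER against Input. The authors deposited a gene table with a signal per gene and library, the average peak height over active regions, and tracks of intervals with the signal at each summit. The 8 columns of other libraries were not used. Labels of lines with no interval in a Parp14+/+ library mostly differed from the gene of the line's transcript accession (the same gene in 5 of 62 Zfp lines with an accession), so the members were restricted to lines with one. Ratios are of heights as deposited, with no pseudocount and with exact binomial (Clopper-Pearson) 95% intervals of heights summed over regions, taken as counts. Medians carry order-statistic intervals. The interval code was tested on simulated data. Thresholds of 1.4 and 0.7 follow the study, whose further rule for ratios nearer 1 at higher peaks was not used. PCR duplicates had been removed by the authors, fragments of a pile-up are not independent cells, and the intervals of single-gene ratios cover counting error alone. GENCODE vM1 on NCBIM37, the assembly of mm9, gave proteins, neighbours and 36-base windows. A KRAB stretch was at least 11 of 21 residues identical to a consensus computed from all proteins with fingers. RefSeq (GRCm38.p6) gave promoters and names. Python 3.11.15, scipy 1.17.1 and Biopython 1.88 were used. Members named were the 5 tallest, those whose interval excluded 1 in a pair, the largest clusters on the chromosomes with most members (ties kept, and the cluster of chromosome 6 added after its values were seen), a list of members with known function, and those at the edge of the rule. The members and lists were chosen with earlier results of these data known. Alternatives to scaling, thresholds, minimum height, presence, naming, pseudocount and measure were tried.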

Additional observations from a re-analysis of the deposited data

Results flagged for a closer look

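Some members passed 1.4 in a pair and fell below 0.7 in the matching pair with no shared library. Each value is a single library against another, and the difference between pairs was not tested. The mean height was under 10 in 69.2% of the members and 58.9% of all genes, and the shares that follow were not set out by height. For the genotype ratios with and without PJ34 this held for 4 of 91 members (4.4%, against 2.01% of all genes). Zfp703 was at 1.74 without and 0.63 with PJ34, and Zfp770 at 1.75 and 0.444. Zfp617 was at 0.667 and 1.67, and Zfp654 at 0.6 and 1.43. For the PJ34 ratios in PARP-14 +/+ and PARP-14 -/- cells it held for 6 members (6.59%, against 2.44% of all genes). Zfp770 was at 1.75 in PARP-14 +/+ and 0.444 in PARP-14 -/- cells and Zfp96 at 1.67 and 0.667. Zfp469 was at 0.677 and 1.59, Zfp598 at 0.643 and 1.55, Zfp617 at 0.64 and 1.6, and Zfp654 at 0.6 and 1.43. Of these, Zfp617 has 24.8% unique coding windows, and the part of shared finger sequence in its values was not tested. The heights behind Zfp770 were 7, 4, 4 and 9, behind Zfp654 6, 10, 10 and 7, and behind Zfp96 5, 3, 4 and 6 in Parp14+/+, Parp14+/+ + PJ34, Parp14-/- and Parp14-/- + PJ34. Apart from the 1.74 of Zfp703 without PJ34, each of these ratios had an interval that included 1.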

How the results depend on the processing

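The 4 medians and the 8 counts past a threshold were recomputed under 8 other settings and 2 more chosen after seeing the data, namely members sharing no values with a neighbour and members with an interval in all 4 libraries. Of 117 such values 81 stayed within the interval of the median or within 1.5 times the count. Some of the 81 could not move. No member carried the values of another member, so counting every gene line changed nothing, and other thresholds leave a median as it is. Scaling each library to a median ratio of 1 to Parp14+/+ over all genes turned the median of treated Parp14+/+ to treated Parp14-/- to 0.962, with 11 above 1.4, and the median of Parp14-/- to treated Parp14-/- to 0.992, with 9 above 1.4 and 11 below 0.7. Under it the interval of Zfp703 (1.68 without PJ34) and that of Zfp143 (1.45) included 1, and that of Zfp143 also did with a pseudocount of 1 (1.51) and by the highest interval (1.44). Zfp703 to its treated library stayed past 1 under every alternative that holds it. Naming the genes by transcript accession, with an interval in any of the 4 libraries, gave 86 members without Zfp703. No interval of these 86 excluded 1 in the untreated genotype pair or in the PARP-14 +/+ PJ34 pair. The minimum summed height of 50 left Zfp143 alone, with ratios of 0.982, 1.12 and 1.57 in the untreated genotype pair, the PARP-14 +/+ PJ34 pair and the PARP-14 -/- PJ34 pair, and counts of 0 and 0, 0 and 0, and 1 and 0 above and below the thresholds, and no member in the treated genotype pair. For PARP-14 -/- cells and PJ34, thresholds of 1.5 and 0.67 left 9 above, and a pseudocount of 1 left 10 above and 4 below. The other changes came with fewer members. With an interval in both Parp14+/+ libraries (56 members), 7 were above and 4 below in the untreated genotype pair, 2 below in the treated one, and 3 below for PJ34 in PARP-14 -/- cells. By the highest overlapping interval, 4 of 39 members were below in the untreated genotype pair, 7 of 33 above and 2 below in the treated one, 6 of 46 below for PJ34 in PARP-14 +/+ cells, and 3 of 31 above and 1 below in PARP-14 -/- cells. In the 34 members with an interval in all 4 libraries the untreated genotype median was 0.947, with 4 above and 4 below, and the counts were 6 and 2 in the treated genotype pair, 2 and 4 for PJ34 in PARP-14 +/+ cells, and 6 and 1 in PARP-14 -/- cells. No paired analysis was possible because each condition had 1 library. Depth limits the members: 63 of 91 had a mean height under 10 fragments. With heights as deposited at most 1 member in a pair had an interval that excluded 1, and by the highest interval at most 2.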
